A study of Mus musculus with 4 samples.

Results

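The windows described here are the 983 stretches of 100 kb that cover mouse chromosome 16, out of 27268 windows in the deposited window table. The chromosome was chosen from these same data, because its mean methylation fell most in cells carrying a netrin-1 transgene, and chromosome 11, with 1221 windows, was taken for comparison because its mean fall was least. Differences between netrin-1 and control cells on either chromosome are therefore given as descriptions. A model across all windows of the genome is used further on to count and pick windows, and since it rests on the same contrast its calls support nothing about these chromosomes. A fall means only that the mean of the netrin-1 libraries was the lower one. Of the 983 windows, 41 had no methylation call in any library, 1 had calls in some libraries only, and 941 had a level in all 4. The covered windows reached from position 3000001 to 98200000 (GRCm38), since the first 3 Mb, next to the centromere, held no calls. On chromosome 11, 1169 windows had a level in all 4 libraries.

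The cells were CGR8, an embryonic stem cell line of the mouse grown with serum and the cytokine LIF, and their DNA methylation was read by RRBS, reduced representation bisulfite sequencing. The netrin-1 cells (2 libraries) were stably transfected with a ppy-cagg-ires-puro vector carrying the netrin-1 transgene, and the control cells (2 libraries) with the same vector left empty. Both groups thus carry a stably inserted vector and its puromycin resistance gene, and the CAGG element of the vector is a strong promoter used for expression in most cell types. Whether replicates came from separate transfections, clones or cultures is not stated in the labels, so the spread between libraries of a group may be technical.

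RRBS cuts DNA with MspI, which recognises CCGG, and reads the cytosines near those sites. A 100 kb window therefore contributes many positions where CpG islands and genes are dense and few where they are sparse. In embryonic stem cells CpG islands at promoters are mostly free of methylation, whereas the DNA between islands, inside genes and between them, carries most of the methylated cytosines, and its level depends on culture conditions and on the balance of DNA methyltransferases and TET enzymes. Netrin-1 is a secreted protein first known for guiding axons through receptors such as DCC, UNC5 proteins and DSCAM. Mouse chromosome 16 carries Dscam, the Slit receptor genes Robo1 and Robo2, a distal region syntenic with human chromosome 21, and a proximal region syntenic with the human 22q11 interval.

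The promoters of 3 long genes of the middle of the chromosome are shown because their gene bodies had some of the largest falls among the long genes of the chromosome, while the promoters themselves were nearly free of methylation. They are Cadm2, which encodes a synaptic adhesion molecule (chr16:67620859-67621158, minus strand), Robo2, which encodes a receptor for Slit proteins (chr16:74411776-74412075, minus strand), and Lsamp, which encodes a neuronal adhesion protein of the limbic system (chr16:39984114-39984413, plus strand). Each sequence is the RefSeq reference (GRCm38.p6), written 5′ to 3′ on the strand of its gene, and its 300 bases run from upstream of the transcription start to just past it. Capitals mark CCGG, the MspI site, which reads the same on both strands.
Cadm2: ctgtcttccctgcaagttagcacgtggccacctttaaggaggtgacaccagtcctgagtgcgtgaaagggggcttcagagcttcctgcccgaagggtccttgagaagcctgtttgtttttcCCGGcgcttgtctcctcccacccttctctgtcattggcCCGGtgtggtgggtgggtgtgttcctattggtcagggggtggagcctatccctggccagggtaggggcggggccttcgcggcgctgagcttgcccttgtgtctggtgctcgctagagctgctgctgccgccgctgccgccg
Robo2: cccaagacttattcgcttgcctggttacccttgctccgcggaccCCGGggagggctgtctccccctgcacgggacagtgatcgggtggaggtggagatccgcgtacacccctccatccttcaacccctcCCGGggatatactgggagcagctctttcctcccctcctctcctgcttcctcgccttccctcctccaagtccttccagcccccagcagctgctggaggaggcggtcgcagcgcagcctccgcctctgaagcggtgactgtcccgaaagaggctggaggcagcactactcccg
Lsamp: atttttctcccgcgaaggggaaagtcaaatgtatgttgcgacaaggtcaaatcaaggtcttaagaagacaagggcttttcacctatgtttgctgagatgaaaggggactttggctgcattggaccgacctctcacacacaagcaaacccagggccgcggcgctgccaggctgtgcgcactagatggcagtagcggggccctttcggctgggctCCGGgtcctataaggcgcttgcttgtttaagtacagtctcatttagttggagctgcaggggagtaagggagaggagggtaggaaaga

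The Cadm2 stretch holds 2 CCGG sites and 15 CpGs, the Robo2 stretch 2 sites and 17 CpGs, and the Lsamp stretch 1 site and 12 CpGs. Of 1078 RefSeq promoter stretches of this length on chromosome 16, 50.6% held a CCGG, against 60.5% of 2289 on chromosome 11 and 52.8% of 32851 in the genome. The median promoter stretch had 6 CpGs on chromosome 16, 10 on chromosome 11 and 7 in the genome.

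The mature sequences of 3 microRNAs follow because their genes lie in a pair of neighbouring windows that both had lower methylation in netrin-1 cells. Mir99a and Mirlet7c-1 lie in the first window and Mir125b-2 in the second, and the family members let-7 and miR-125 are known as regulators of developmental timing that restrain stem cell genes as cells differentiate. The genomic positions of the mature sequences are chr16:77598940-77598961, chr16:77599672-77599693 and chr16:77646279-77646300, all on the plus strand. Capitals mark the seed, bases 2 to 8, and the 3 seeds differ from each other.
mmu-miR-99a-5p: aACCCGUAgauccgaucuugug
mmu-let-7c-5p: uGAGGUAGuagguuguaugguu
mmu-miR-125b-5p: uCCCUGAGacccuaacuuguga

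Depth differed between libraries, and the share of it on chromosome 16 was slightly higher in both netrin-1 libraries than in both controls. The window table held 32770000 and 44642064 methylation calls in the netrin-1 libraries, and 28004487 and 37394424 in the controls, of which chromosome 16 took 3.36% and 3.35% in netrin-1 cells and 3.31% and 3.31% in control cells. The mean share was 3.36% ± 0.00678 in netrin-1 cells and 3.31% ± 0.00231 in control cells (SD, n = 2 each), a difference of 0.0461 percentage points. The exact two-sided permutation test over libraries gave p = 0.333, the smallest value that 2 libraries against 2 can give. For chromosome 11 the shares were 5.91% ± 0.0539 in netrin-1 cells and 5.92% ± 0.0516 in control cells (SD, n = 2 each, exact permutation p = 0.667). The median window of chromosome 16 held 765 and 1048 calls in netrin-1 libraries and 654 and 872 in controls. The median window of chromosome 11, with 1227 and 1700 calls in netrin-1 libraries and 1048 and 1438 in controls, was measured more deeply.

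Methylation over the windows of chromosome 16 was lower in both netrin-1 libraries than in both controls. The mean window level, which weights each window equally, was 34.1% and 33.1% in netrin-1 replicates 1 and 2, against 37.4% and 39.4% in control replicates 1 and 2. The groups did not overlap, and the nearest libraries lay 3.32 points apart. The means were 33.6% ± 0.641 in netrin-1 cells and 38.4% ± 1.40 in control cells (SD, n = 2 each), a difference of -4.76 points. On chromosome 11 the levels were 36.0% and 34.6% in netrin-1 libraries against 37.8% and 39.1% in controls, or 35.3% ± 0.963 in netrin-1 cells and 38.5% ± 0.898 in control cells (SD, n = 2 each), a difference of -3.18 points. The netrin-1 levels of the 2 chromosomes were thus further apart than their control levels. Over all windows of the 20 chromosomes compared (the autosomes and X) the difference was -3.92 points, and chromosome 15, with -4.53 points, came next to chromosome 16. Relative to that genome-wide shift, chromosome 16 stood at -0.843 points and chromosome 11 at 0.742.

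The order of the 2 chromosomes was the same in each of the 4 pairs of a netrin-1 and a control library. Netrin-1 replicate 1 minus control replicate 1 gave -3.32 points on chromosome 16 and -1.86 on chromosome 11, and netrin-1 replicate 1 minus control replicate 2 gave -5.30 and -3.13. Netrin-1 replicate 2 minus control replicate 1 gave -4.22 on chromosome 16 and -3.22 on chromosome 11, and netrin-1 replicate 2 minus control replicate 2 gave -6.21 and -4.49. These pairs share libraries and are not 4 independent comparisons. Chromosome 16 had the lowest value of the 20 chromosomes in both pairs with netrin-1 replicate 2. In the pairs with netrin-1 replicate 1 it was second lowest, behind chromosome 15 (-3.66) against control replicate 1 and X (-5.36) against control replicate 2. Chromosome 11, counted from the lowest value, was 20th, 19th, 16th and 19th in the pairs in the order given above. Libraries of the same group also differed. Netrin-1 replicate 2 minus netrin-1 replicate 1 was -0.906 points on chromosome 16 and -1.36 on chromosome 11, and control replicate 2 minus control replicate 1 was 1.99 and 1.27 points.

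**Figure D1:**
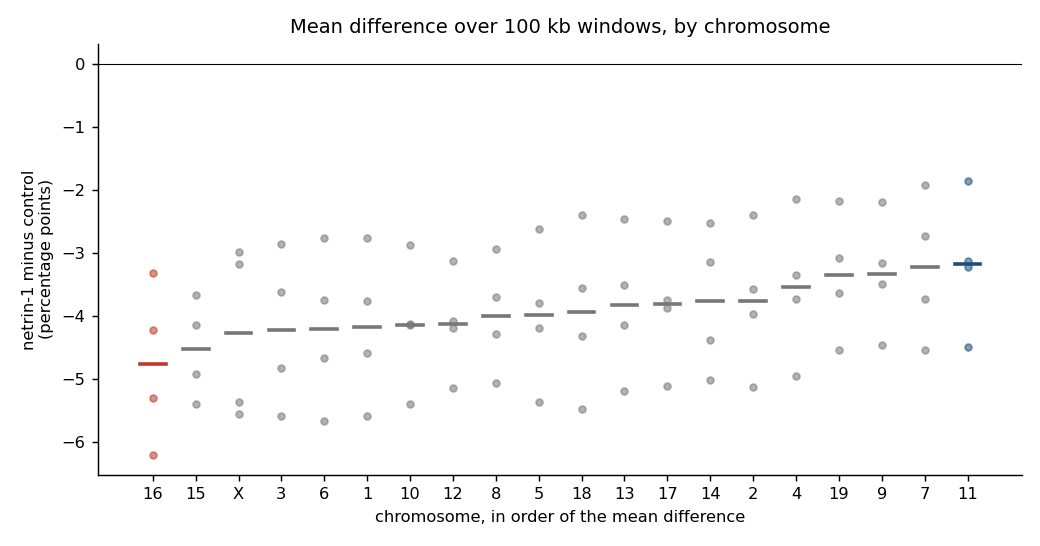
Mean difference in window methylation, netrin-1 minus control, in percentage points, for 20 chromosomes in order of the difference. Bars are differences of group means (n = 2 each) and points are the 4 pairs of libraries. Chromosome 16 (red) is at -4.76 and chromosome 11 (blue) at -3.18, and the pairs of each chromosome spread more widely than the chromosomes' means.

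The distance between chromosomes depended on how windows were weighted. When all calls were pooled, so that deeply covered windows counted most, chromosome 16 had 34.5% and 32.6% in netrin-1 libraries against 36.1% and 37.5% in controls. That difference was -3.24 points and the fourth largest of 20, behind chromosome 15 and X among others, and chromosome 16 minus chromosome 11 was then -0.758 points, against -1.58 for the unweighted means. Sparsely covered windows, which count little in the pooled value, had the larger falls, as given by number of covered positions further on.

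Along chromosome 16 the fall was concentrated in the middle and distal-middle of the chromosome. In bins of 10 Mb counted from the first base, the difference was -2.13 points in the first bin, which begins with the uncovered 3 Mb, and -3.54, -3.37 and -3.27 in the next 3 bins. It then reached -6.22 points between 40 and 50 Mb, -5.60 between 50 and 60 Mb, -7.59 between 60 and 70 Mb, -6.46 between 70 and 80 Mb and -5.43 between 80 and 90 Mb. In the last bin, from 90 Mb to the end, it was -2.96 points. Both netrin-1 libraries lay below both controls in 10 of 10 bins. These means weight windows equally. With all calls of a bin pooled, the differences were -1.76, -2.66, -2.70 and -2.44 points in the bins up to 40 Mb. They were then -4.70, -3.14, -6.21, -4.02 and -4.60 points up to 90 Mb, and -2.84 in the last bin. The bin from 50 to 60 Mb was thus close to the outer bins when calls were pooled.

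The bin with the greatest fall, 60 to 70 Mb, had mean levels of 28.3% and 27.6% in netrin-1 libraries and 34.3% and 36.8% in controls. It was also the bin with the lowest control level of the chromosome, and its windows averaged 37.9 covered positions, the fewest of any bin. The adjoining bin, 70 to 80 Mb, had 30.3% and 30.4% in netrin-1 libraries and 35.4% and 38.2% in controls, with 40.6 covered positions a window. The last bin, which holds Dscam, had 39.5% and 37.5% in netrin-1 libraries and 40.9% and 42.0% in controls, with 120 covered positions a window. The number of calls in netrin-1 relative to control libraries, after scaling to library totals, stayed between 0.98 and 1.03 in every bin.

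**Figure D2:**
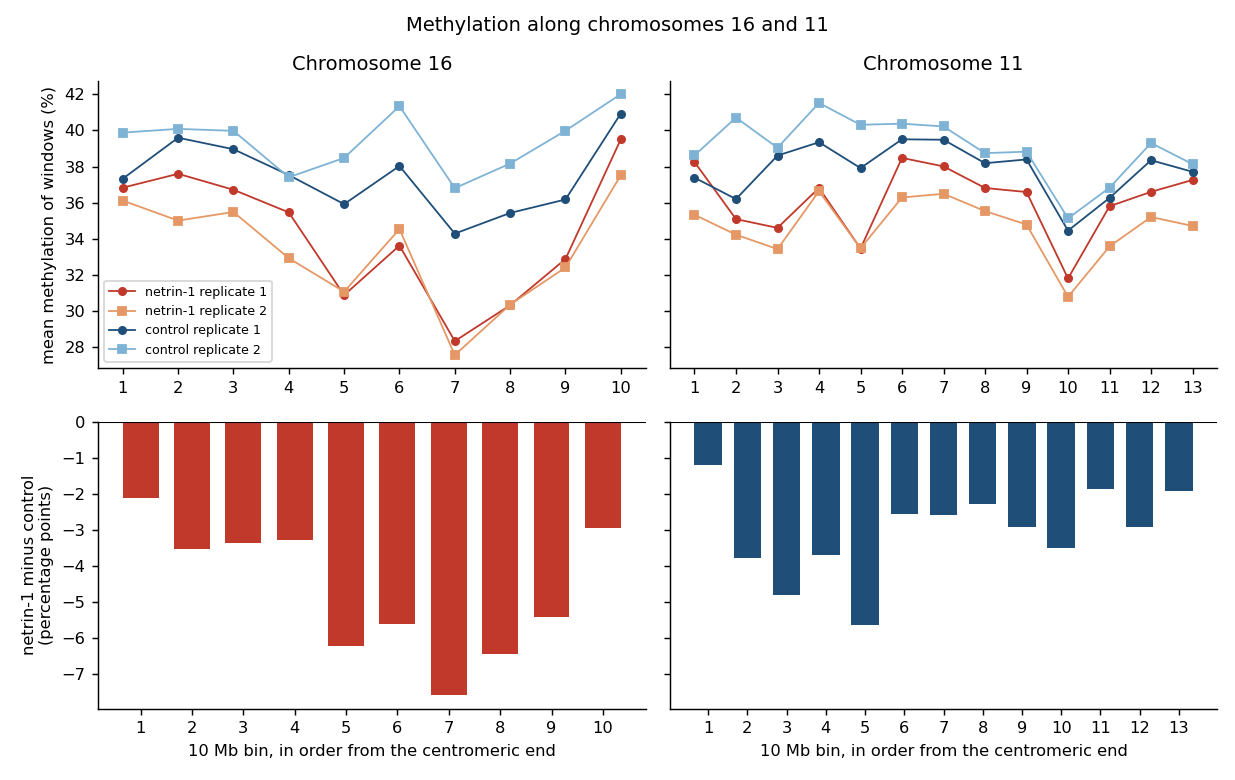
Methylation along chromosome 16 (left) and chromosome 11 (right) in 10 Mb bins. The upper panels give the mean window level of each library in percent, and the lower panels the netrin-1 minus control difference in percentage points. On chromosome 16 bins 5 to 9 lie between -7.59 and -5.43 points, and on chromosome 11 only bin 5 lies below -5 points.

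With boundaries at 40 and 90 Mb, set after the bins had been seen, the middle 492 windows of chromosome 16 had mean levels of 31.2% and 31.2% in netrin-1 libraries and 36.0% and 39.0% in controls, a difference of -6.26 points. The 367 windows before 40 Mb had 36.6% and 34.8% in netrin-1 libraries and 38.4% and 39.3% in controls, a difference of -3.16 points. The 82 windows after 90 Mb differed by -2.96 points. The middle windows were 52.3% of the windows with a level, and they held 68.7% of the summed fall and 39.1% of the calls. In the middle the netrin-1 libraries lay 0.0164 points apart and the controls 2.99, whereas before 40 Mb the netrin-1 libraries were 1.86 points apart and the controls 0.850. The middle is poor in genes: 55.1% of its windows overlapped no protein-coding gene and it held 4.12 protein-coding starts per Mb, against 25.3% and 9.47 before 40 Mb and 19.5% and 9.26 after 90 Mb.

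Chromosome 11 had its larger falls between 10 and 50 Mb. Its differences by 10 Mb bin, in order, were -1.21, -3.80, -4.80, -3.71 and -5.64 points up to 50 Mb, then -2.56, -2.60, -2.29, -2.92 and -3.50 up to 100 Mb, and -1.86, -2.92 and -1.94 to the end. The greatest fall, between 40 and 50 Mb, came from 33.5% and 33.5% in netrin-1 libraries and 37.9% and 40.3% in controls. Both netrin-1 libraries lay below both controls in 12 of 13 bins, the exception being the first bin, with 38.2% and 35.3% in netrin-1 libraries and 37.4% and 38.6% in controls. The windows between 20 and 30 Mb averaged 37.1 covered positions, as few as in the middle of chromosome 16. In the bins from 10 to 50 Mb, 34.7% to 71.9% of the windows overlapped no protein-coding gene, against 4.04% to 30% in the other bins of chromosome 11. Over the 10 bins of chromosome 16 the number of covered positions and the difference had a Pearson r of 0.731 and a Spearman correlation of 0.855, so that bins with fewer positions had larger falls. Over the 13 bins of chromosome 11 Pearson r was 0.604 and the Spearman correlation 0.621. The bins share the same 4 libraries, and these correlations are descriptions.

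Windows with few covered positions had larger falls on chromosome 16, on chromosome 11 and over the other 18 chromosomes together. At a like number of positions, those of chromosome 16 had lower differences than those of chromosome 11. Among windows with fewer than 20 covered positions, the 174 of chromosome 16 had mean levels of 31.2% and 31.6% in netrin-1 libraries and 37.5% and 40.4% in controls, a difference of -7.56 points. The 151 such windows of chromosome 11 differed by -5.28 points and those of the other 18 chromosomes by -5.90. With 20 to 30 positions the differences were -6.24 on chromosome 16, -4.89 on chromosome 11 and -5.39 on the others, and with 30 to 40 positions they were -5.47, -3.85 and -4.64. With 40 to 60 positions they were -4.63, -3.15 and -3.78. Above that the chromosomes came together: -2.94, -2.73 and -3.06 points with 60 to 100 positions, and -2.46, -2.17 and -2.13 with 100 or more. Windows with fewer than 20 positions were 18.5% of chromosome 16 and 12.9% of chromosome 11, and those with 100 or more were 18.2% and 35.8%.

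Windows were also grouped by methylation level. In windows between 20% and 30% (mean of the 4 libraries) the difference was -5.43 points on chromosome 16, -3.75 on chromosome 11 and -4.77 on the other 18 chromosomes. In windows between 30% and 40% it was -5.80, -3.44 and -4.50, and between 40% and 50% it was -3.77, -3.16 and -3.50. Between 50% and 60% it was -3.91 over 73 windows of chromosome 16, -1.91 over 105 of chromosome 11 and -2.58 on the others. Between 60% and 70%, where the groups overlapped, it was -2.76 over 12 windows of chromosome 16, 1.27 over 11 of chromosome 11 and -1.24 on the others. The 14 windows of chromosome 16 below 10% differed by -1.20 points. Windows of chromosome 16 that overlapped no protein-coding gene differed by -5.69 points and those overlapping 1 gene by -5.06, against -4.58 and -3.09 on chromosome 11. Windows overlapping 2 or 3 genes differed by -2.89 points on chromosome 16 and -2.66 on chromosome 11, and those overlapping 4 or more by -2.95 and -1.97.

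When each chromosome's windows were reweighted to the genome's distribution of covered positions, chromosome 16 had a difference of -4.58 points and stayed first of 20, with chromosome 15 at -4.53. Chromosome 11 then had -3.49 and was 19th, above chromosome 7 at -3.36. Reweighting by level alone gave -4.74 on chromosome 16 and -3.13 on chromosome 11. Reweighting by the number of protein-coding genes gave -4.66 on chromosome 16 and -3.45 on chromosome 11, which was 19th. By level and covered positions together they had -4.57 and -3.56, and chromosome 11 was 17th. The gap between the 2 chromosomes was thus -1.58 points unadjusted, -1.61 at equal level, -1.09 at equal covered positions, -1.21 at equal gene content and -1.01 at equal level and covered positions. The reweightings that use covered positions or genes were chosen after the data had been seen.

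**Figure D3:**
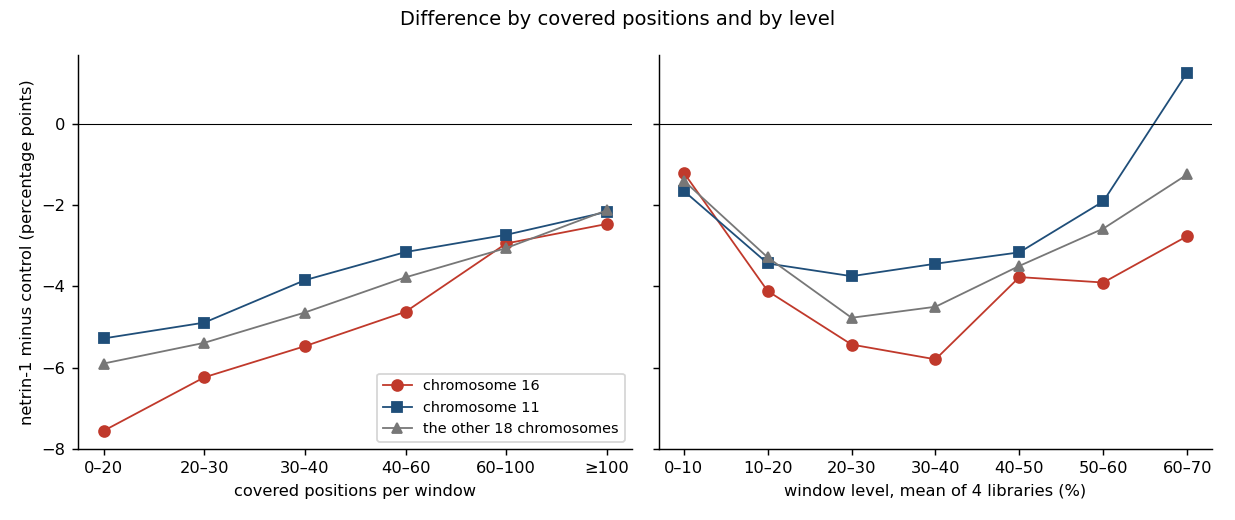
Netrin-1 minus control difference in percentage points for windows grouped by covered positions (left) and by mean level (right), on chromosome 16, chromosome 11 and the other 18 chromosomes. Chromosome 16 lies lowest in windows with fewer than 60 positions, farthest from the other lines below 20 positions, and it lies lowest in each level bin but the first. The bin from 60% to 70% holds 12 windows of chromosome 16 and 11 of chromosome 11.

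Falls on chromosome 16 were spread over many windows rather than carried by a few. The mean level was lower in netrin-1 cells in 772 of 941 windows, or 82.0%, against 80.6% of all windows, and in 929 of 1169 windows of chromosome 11. Both netrin-1 libraries lay below both controls in 491 windows (52.2%), against 46.6% of all windows, and in 509 windows (43.5%) of chromosome 11. Both netrin-1 libraries lay above both controls in 36 windows of chromosome 16 and 49 of chromosome 11, against 4.48% of all windows. Falls of over 10 points occurred in 138 windows of chromosome 16 (14.7%), in 76 of chromosome 11 (6.50%) and in 11.1% of all windows. Falls of over 20 points were rare, at 8 windows of chromosome 16 and 7 of chromosome 11. The median window difference was -4.32 points on chromosome 16 and -2.85 on chromosome 11, and 90% of the windows of chromosome 16 lay between -14.4 and 3.10 points. Because the chromosome was chosen by this contrast, nothing is read from these counts.

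A quasi-binomial model of methylated and unmethylated calls, with the dispersion moderated across windows by limma and p-values adjusted over 23743 tested windows (Benjamini-Hochberg), called 30 of 878 tested windows of chromosome 16 at an adjusted p below 0.05. All 30 were lower in netrin-1 cells. Of all tested windows 2.22% were called, and 2.2% were called lower. On chromosome 11 it called 18 of 1118 windows, 17 of them lower. The unadjusted p was below 0.05 in 236 windows of chromosome 16 and 200 of chromosome 11, against 22.2% of all windows. The 30 windows had differences between -20.4 and -8.63 points with a median of -14.3. No protein-coding gene was overlapped by 13 of them. The same was true of 40.4% of the windows of chromosome 16 with a level, and of 55.1% of those between 40 and 90 Mb. Of the 30 windows, 25 lay between 40 and 90 Mb, which held 443 of the 878 tested windows. Those boundaries were set on the falls themselves, so nothing is read from this count. The count moved when single libraries were left out. Leaving out netrin-1 replicate 1 gave 67 windows and leaving out netrin-1 replicate 2 gave 12, while leaving out control replicate 1 gave 12 and control replicate 2 gave 0, with 110 windows at an unadjusted p below 0.05. The fit without control replicate 1 also depended on the lower limit set on near-zero dispersions, since with a limit of 0.001 it called 73 windows. With that limit the other 3 fits gave 67, 12 and 0 as before. The count was also 0 when the dispersion was moderated without a trend on coverage (207 windows unadjusted) or not moderated (74). The same held with limma on percentage points (207) and with an offset in the model for each library's level over all pooled calls (138).

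Of the 10 largest falls among tested windows of chromosome 16 whose groups did not overlap, 7 lay between 40 and 90 Mb and 7 overlapped no protein-coding gene. Of all windows of the chromosome with a level, 52.3% lay in that stretch and 40.4% overlapped no protein-coding gene. The 10 windows had 80 to 1099 calls per library. The largest was in chr16:69600001-69700000, which overlaps no gene, with 54.9% and 36.8% in netrin-1 libraries and 63.5% and 69.0% in controls, a difference of -20.4 points. The netrin-1 libraries were themselves far apart in this window. The next was chr16:56500001-56600000 within Abi3bp, which encodes an extracellular matrix protein, with 26.1% and 36.2% in netrin-1 libraries and 49.8% and 52.3% in controls, a difference of -19.9 points. The gene-free window chr16:77300001-77400000 had 27.3% and 35.4% in netrin-1 libraries and 52.3% and 49.7% in controls.

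The remaining windows of this group ranged from -19.3 to -17.8 points, and 2 of them lay in the proximal part of the chromosome within genes. In chr16:16600001-16700000, which overlaps Fgd4, an exchange factor for the small GTPase Cdc42, and the olfactory receptor gene Olfr19, the levels were 28.1% and 31.3% in netrin-1 libraries and 47.0% and 49.6% in controls. In chr16:37100001-37200000, within the syntaxin-binding gene Stxbp5l, they were 21.4% and 21.0% in netrin-1 libraries and 35.1% and 43.9% in controls, from as few as 98 calls. The 5 others, at 26.2, 47.5, 53.7, 61.9 and 80.7 Mb, overlapped no protein-coding gene. The window at 80.7 Mb had 28.4% and 21.8% in netrin-1 libraries and 35.7% and 51.4% in controls, which were far apart. The number of calls in netrin-1 relative to control libraries ranged from 0.757 to 1.40 over these 10 windows, a wider range than that of the 10 Mb bins, and its part in the differences was not tested.

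**Figure D4:**
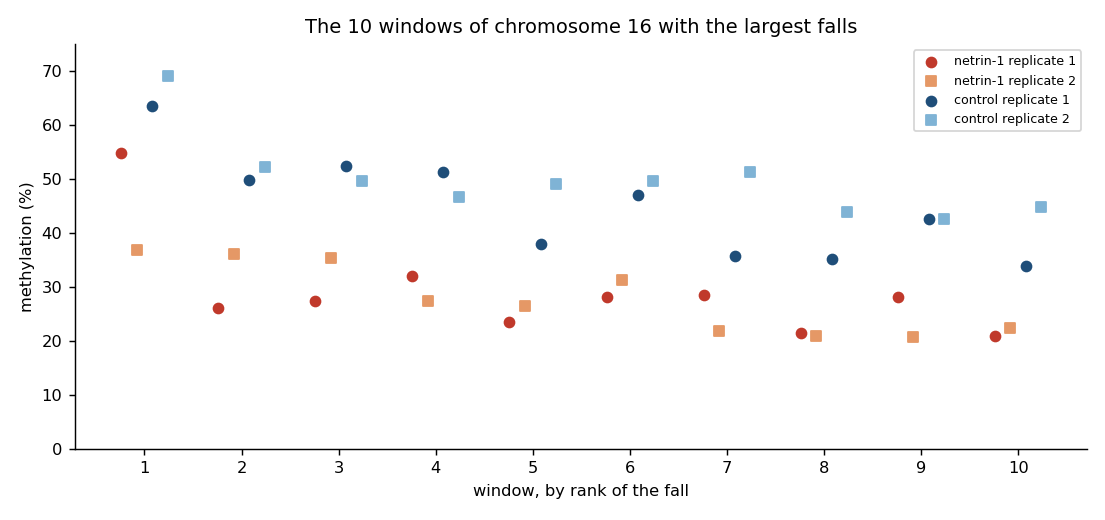
Methylation in percent of the 10 windows of chromosome 16 with the largest falls among tested windows whose groups did not overlap, in order of the fall. Each point is a library, and netrin-1 libraries are drawn left of controls. The netrin-1 points lie between 20.7% and 54.9% and the control points between 33.9% and 69.0%.

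Of the 5 largest rises on chromosome 16, only the first pair reached the size of the largest falls, and the 5 windows held 77 to 681 calls per library. The window chr16:7800001-7900000, with no protein-coding gene, had 64.9% and 48.5% in netrin-1 libraries and 26.4% and 45.9% in controls, from 77 to 136 calls. The gene-free window chr16:27000001-27100000 had 38.0% and 24.8% in netrin-1 libraries and 6.30% and 18.9% in controls. In chr16:35000001-35100000, which overlaps the myosin light chain kinase gene Mylk and the fatty acid elongation gene Ptplb, the levels were 30.6% and 32.0% in netrin-1 libraries and 24.1% and 21.1% in controls, a difference of 8.67 points. The other two rises, of 7.90 and 7.85 points, lay at 58.7 and 58.9 Mb in a cluster of olfactory receptor genes (Olfr172, Olfr173, Olfr180, Olfr181 and Olfr183), inside the stretch where most windows fell. None of the 5 windows was called.

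The 10 called windows with the smallest adjusted p-values were deeper, with 297 to 2988 calls per library, and 8 of them lay between 40 and 90 Mb. The first was the gene-free window chr16:81700001-81800000, with 27.8% and 26.7% in netrin-1 libraries and 41.2% and 42.7% in controls. The second, chr16:89000001-89100000, holds keratin-associated protein genes of hair (Krtap6-1, Krtap6-3, Krtap6-5 and Krtap22-2) and had 21.8% and 23.0% in netrin-1 libraries and 38.1% and 38.1% in controls. In both windows the libraries of a group lay close together and the groups far apart.

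Among these 10 windows, 2 lay within Cadm2. In chr16:66800001-66900000 the levels were 21.8% and 19.3% in netrin-1 libraries and 34.2% and 36.1% in controls, and in chr16:67300001-67400000 they were 11.7% and 13.6% in netrin-1 libraries and 26.9% and 25.7% in controls. The window chr16:85700001-85800000 with Adamts1, which encodes a secreted metalloprotease, had 34.0% and 30.1% in netrin-1 libraries and 42.6% and 45.8% in controls. The windows at 72.2 and 93.0 Mb, with no protein-coding gene, differed by -14.8 and -11.5 points, and the windows at 16.6 and 69.6 Mb are those given above among the largest falls.

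The window chr16:77600001-77700000, which holds Mir125b-2 and part of the gene model Gm11146, was also among the 10. It had 22.8% and 22.2% in netrin-1 libraries and 34.9% and 38.2% in controls, a difference of -14.0 points. The preceding window, chr16:77500001-77600000, with Mir99a and Mirlet7c-1, was called too, with 15.9% and 17.3% in netrin-1 libraries and 26.8% and 23.7% in controls. These levels are of the whole windows, and the microRNA sequences given above cover 22 bases each. Other called windows overlapped Lsamp (42.1 Mb), the germline gene Morc1 (48.6 Mb), the glycogen branching enzyme gene Gbe1 (70.4 Mb), the interleukin receptor gene Il1rap (26.7 Mb), the mitochondrial fusion gene Opa1 (29.5 Mb) and the claudin genes Cldn8 and Cldn17 (88.5 Mb).

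Windows with both netrin-1 libraries below both controls stood in runs of up to 12 neighbours. Such windows were 52.2% of chromosome 16, 43.5% of chromosome 11 and 46.6% of all windows. At these shares runs also form among unlinked windows, and the run lengths were not tested against that. The longest run in which every window had both netrin-1 libraries below both controls covered chr16:46500001-47700000, with no protein-coding gene, and its mean levels were 24.5% and 28.3% in netrin-1 libraries and 39.2% and 42.7% in controls, a difference of -14.5 points. At least 1 window of that run had as few as 2 calls in a library. The next, of 9 windows, covered chr16:72000001-72900000 up to the 5′ part of Robo1, with 27.1% and 25.1% in netrin-1 libraries and 33.2% and 35.9% in controls. Another of 9 windows, chr16:54500001-55400000, reached Zpld1 and had 29.2% and 30.2% in netrin-1 libraries and 36.1% and 38.9% in controls. Runs of 8 windows covered the 5′ part of Robo2 and the DNA beyond it (74.1 to 74.9 Mb, -9.93 points), the microRNA windows (77.2 to 78 Mb, -9.83 points) and Lsamp to Gap43 (42 to 42.8 Mb, -8.82 points). Chromosome 16 had 21 lower runs of 5 or more windows and chromosome 11 had 17, the longest of them of 7 windows. No run of higher windows exceeded 2 windows on either chromosome. The differences of neighbouring windows had a Pearson r of 0.150 on chromosome 16 (929 pairs) and 0.106 on chromosome 11 (1148 pairs), both weak.

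On chromosome 11 the 3 largest falls, chosen in the same way among tested windows, were deeper than the largest so chosen on chromosome 16. In chr11:65900001-66000000, within the dynein heavy chain gene Dnah9, the levels were 22.2% and 31.5% in netrin-1 libraries and 61.4% and 46.8% in controls, a difference of -27.3 points from 70 to 178 calls. In chr11:47700001-47800000, within the sarcoglycan gene Sgcd, they were 37.8% and 28.3% in netrin-1 libraries and 50.5% and 63.8% in controls. In chr11:42700001-42800000, with no gene, they were 24.0% and 20.5% in netrin-1 libraries and 42.8% and 47.3% in controls. The largest rise, in the gene-free window chr11:110700001-110800000, was 18.9 points, with 63.8% and 74.1% in netrin-1 libraries and 38.0% and 62.1% in controls. The window chr11:85000001-85100000 within the ubiquitin protease gene Usp32 had 75.3% and 67.3% in netrin-1 libraries and 59.8% and 60.01% in controls.

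In points, the differences of chromosome 16 were smaller in islands and promoters, whose levels are low, than in gene bodies. Its 425 CpG islands had mean levels of 1.78% and 2.02% in netrin-1 libraries and 2.48% and 2.42% in controls, a difference of -0.551 points. Shores, the flanks of islands, differed by -0.934 points, with 8.90% and 8.70% in netrin-1 libraries and 9.88% and 9.59% in controls, and shelves, further out, by -1.90 points. The 498 promoters, reaching 500 bp to either side of the start, had 6.01% and 5.85% in netrin-1 libraries and 6.46% and 6.51% in controls. The 562 gene bodies had 28.1% and 26.2% in netrin-1 libraries and 29.4% and 29.6% in controls, a difference of -2.37 points. Among 20 chromosomes these differences ranked second for islands, sixth for gene bodies, 11th for shelves, 15th for shores and 16th for promoters, so chromosome 16 did not stand first in any of them. On chromosome 11 the difference was -0.394 points for islands, -0.977 for promoters and -2.06 for gene bodies, and its promoters ranked second.

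In mean difference, gene bodies followed the same course along the chromosome as the windows. Between 40 and 90 Mb 136 bodies had 26.5% and 25.3% in netrin-1 libraries and 29.6% and 29.9% in controls, a difference of -3.80 points. The 344 bodies before 40 Mb differed by -1.84 points and the 82 after 90 Mb by -2.26. The share of bodies lower without overlap took another course. It was 31.1% before 40 Mb, 38.2% between 40 and 90 Mb and 42.7% after 90 Mb. For windows these shares were 42.0%, 60.2% and 50%. Both netrin-1 libraries lay below both controls in 194 of the 562 bodies, or 34.5%, against 33.3% of all gene bodies, and in 109 of 498 promoters, or 21.9%, against 20.8% of all promoters. The island, gene and window tables come from the same 4 libraries and partly from the same positions.

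Of the 9 protein-coding genes of chromosome 16 that exceed 500 kb, Cadm2, Robo2, Lsamp and Epha6, which lie between 40 and 90 Mb but for the first bases of Lsamp, had the 4 deepest falls. The body of Cadm2, the adhesion gene whose promoter is shown above, had 20.6% and 17.6% in netrin-1 libraries and 30.9% and 31.1% in controls, a difference of -11.9 points. The body of Robo2 had 21.8% and 21.2% in netrin-1 libraries and 31.3% and 31.1% in controls, a difference of -9.70 points. The body of Lsamp, the longest gene of the chromosome at 2197 kb, had 27.7% and 27.1% in netrin-1 libraries and 35.0% and 37.7% in controls. In these 3 genes the libraries of a group lay close together and the groups far apart.

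The other long genes differed less. Epha6, which encodes a receptor for ephrin-A ligands, had 26.4% and 28.7% in netrin-1 libraries and 32.2% and 36.2% in controls. Zbtb20, a transcriptional repressor gene, had 21.2% and 21.3% in netrin-1 libraries and 23.7% and 25.3% in controls, a difference of -3.30 points, smaller though it also lies in the middle stretch. Dscam, the netrin-1 receptor gene near the distal end, had 30.8% and 29.4% in netrin-1 libraries and 31.3% and 37.9% in controls, a difference of -4.44 points, and control replicate 1 lay close to both netrin-1 libraries. In the proximal part, the splicing regulator gene Rbfox1 differed by -1.92 points, the guanine nucleotide exchange factor gene Kalrn by -2.93, and the LIM domain gene Lpp had overlapping groups, with 38.1% and 35.8% in netrin-1 libraries and 37.3% and 40.02% in controls. The 35 bodies over 200 kb differed by -3.68 points on average, 11th of the 20 chromosomes.

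**Figure D5:**
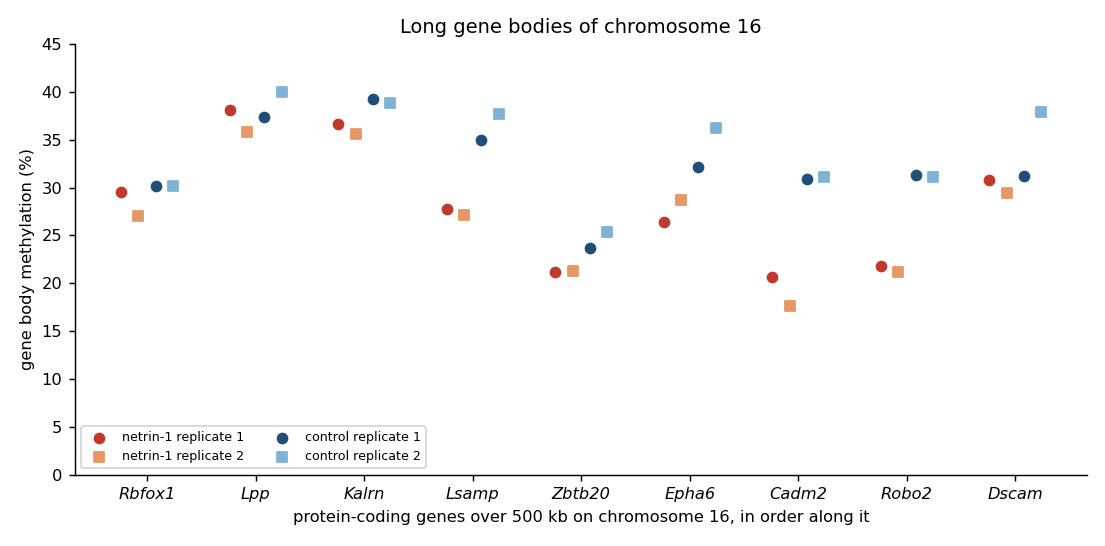
Gene body methylation in percent of the 9 protein-coding genes over 500 kb on chromosome 16, in order along the chromosome. Each point is a library, with netrin-1 libraries left of controls. Cadm2, Robo2 and Lsamp show the widest distance between groups, and the groups of Lpp overlap.

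The promoters of Cadm2, Robo2 and Lsamp were below 4% in all libraries, and they did not move in one direction. The Cadm2 promoter had 3.64% and 1.64% in netrin-1 libraries and 1.37% and 0.407% in controls, which is higher in netrin-1 cells, opposite in direction to its body. The Robo2 promoter had 2.50% and 2.23% in netrin-1 libraries and 2.57% and 1.69% in controls. The Lsamp promoter had 1.39% and 0.496% in netrin-1 libraries and 3.92% and 3.26% in controls, lower in both netrin-1 libraries. That of Dscam was lower without overlap as well, with 0.563% and 0.879% in netrin-1 libraries and 1.69% and 1.05% in controls.

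The list of netrin and guidance genes on chromosome 16 held 14 genes, all with a measured body. All 14 bodies had a lower mean in netrin-1 cells, and in 10 both netrin-1 libraries lay below both controls. Their median difference was -4.31 points, against -1.83 for all bodies of the chromosome and -1.73 for all bodies of the genome. Among bodies over 200 kb alone the median was -2.93 points on chromosome 16 and -3.34 in the genome. Of all gene bodies 33.3% lay lower without overlap, but of those over 200 kb, as 9 of the 14 are, 65.7% did on chromosome 16 and 65.9% in the genome. The mean was lower in 72.1% of all bodies of chromosome 16 and in 69.8% of those of the genome. Among bodies over 200 kb it was lower in 80% on chromosome 16 and in 91.6% in the genome. Besides the genes already given, the body of Epha3, another ephrin receptor gene, had 26.9% and 20.9% in netrin-1 libraries and 32.8% and 39.98% in controls, the largest difference of the list at -12.5 points. Robo1 had 40.2% and 36.4% in netrin-1 libraries and 41.3% and 43.6% in controls. App, the amyloid precursor gene, had 39.4% and 42.6% in netrin-1 libraries and 43.7% and 47.6% in controls. Gap43, a growth cone gene, had 20.9% and 22.6% in netrin-1 libraries and 24.8% and 22.9% in controls. The groups overlapped for the Rac exchange factor gene Tiam1, the kinase gene Pak2, the adhesion gene Nectin3 and the Hedgehog coreceptor gene Boc. Of the 12 promoters measured, 8 were lower in mean and 4 higher, where 59.4% of promoters on chromosome 16 and 56.2% in the genome were lower. The median difference of the 12 was -0.322 points, with levels of 0.138% to 2.70% in netrin-1 cells and 0.256% to 5.89% in control cells. The list holds many of the long genes of the gene-poor middle, which limits it as a separate view of the chromosome.

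Of 37 listed genes of the region syntenic with human chromosome 21, 36 were found and 34 had a measured body. The mean was lower in netrin-1 cells in 27 bodies and higher in 7, both netrin-1 libraries lay below both controls in 17, and the median difference was -3.40 points. Over all gene bodies 69.8% were lower in mean and 33.3% lay lower without overlap. The median difference of all bodies was -1.83 points on chromosome 16 and -1.73 in the genome. The listed genes lie in the parts from 40 to 90 Mb and after 90 Mb. All bodies of those 2 parts had median differences of -3.49 and -2.40 points. Of them 77.2% and 75.6% were lower in mean, and 38.2% and 42.7% lay lower without overlap. The 34 bodies include Lipi, with 1 to 7 calls per library, and Ifnar2, with 8 to 14. The list shares App, Tiam1 and Dscam with the guidance genes. The potassium channel gene Kcnj15 had 46.4% and 47.4% in netrin-1 libraries and 54.98% and 58.5% in controls, and its relative Kcnj6 had 33.7% and 33.6% in netrin-1 libraries and 37.6% and 41.7% in controls. The glutamate receptor gene Grik1 had 33.8% and 34.3% in netrin-1 libraries and 41.3% and 44.3% in controls, and the kinase gene Dyrk1a had 26.8% and 25.6% in netrin-1 libraries and 32.0% and 30.3% in controls. The calcineurin inhibitor gene Rcan1 went the other way without overlap, with 37.0% and 38.7% in netrin-1 libraries and 33.8% and 36.8% in controls. Of 30 promoters, 22 were lower in mean and 8 higher, where 59.4% of promoters on chromosome 16 and 56.2% in the genome were lower. The largest promoter difference was in Cyyr1, a gene of poorly known function, with 47.7% and 33.2% in netrin-1 libraries and 21.4% and 17.3% in controls, a difference of 21.1 points, higher in netrin-1 cells.

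The region syntenic with human 22q11, in the proximal part of the chromosome, had counts of lower bodies near those of the whole chromosome. Of all gene bodies of the chromosome 72.1% were lower in mean and 34.5% lay lower without overlap. Both netrin-1 libraries lay above both controls in 41 of those 562 bodies, and in 1463 of 19231 bodies of the genome. Of 20 measured bodies 15 were lower in mean and 5 higher, both netrin-1 libraries lay below both controls in 7 and above both in 3, and the median difference was -2.08 points. Hira, which encodes a chaperone of histone H3.3, had 20.7% and 18.5% in netrin-1 libraries and 13.4% and 12.4% in controls. Arvcf, a catenin gene, had 36.3% and 30.1% in netrin-1 libraries and 28.6% and 27.0% in controls, and the replication gene Cdc45 had 48.1% and 51.8% in netrin-1 libraries and 43.1% and 47.9% in controls. The mitochondrial citrate carrier gene Slc25a1 had 13.8% and 18.3% in netrin-1 libraries and 28.5% and 28.9% in controls, and the thioredoxin reductase gene Txnrd2 had 24.5% and 29.9% in netrin-1 libraries and 46.7% and 38.9% in controls. The 20 promoters measured had a median difference of -0.234 points.

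The other lists were short. Of 6 measured bodies in the list drawn up for germline and early embryo genes, 4 were lower in mean. In 1, Zpld1, whose place in that list was not checked, both netrin-1 libraries lay below both controls. It had 29.1% and 24.5% in netrin-1 libraries and 30.7% and 40.8% in controls. Of 7 bodies of chromatin genes 4 were lower and 3 higher (median difference -0.0535 points), and the genes Hira, Chaf1b, Brwd1, Hlcs and Dgcr8 in it also stand in the lists of syntenic regions. Only 3 of 25 keratin-associated protein genes and 1 of 36 olfactory receptor genes had a measured body, so that the clusters of these genes were seen through the window table alone.

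Among promoters of pluripotency genes, those of Pou5f1, Sox2, Klf4, Zfp42, Tfcp2l1 and Dppa4 were at 3.03% or less in each library, and that of Nanog had no calls. Dppa4, an early embryo gene, is the 1 marker on chromosome 16, with 0.713% and 0.689% in netrin-1 libraries and 3.03% and 1.89% in controls. The promoter of Esrrb, a pluripotency factor gene, varied between replicates, with 49.4% and 14.8% in netrin-1 libraries and 51.7% and 9.43% in controls, from 53 to 81 calls. Promoters of this kind are mostly unmethylated in many cell types, so these values do not identify the cells, and expression was not analysed here.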

How the data were processed

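2 netrin-1 and 2 control RRBS libraries were compared; groups and replicate numbers came from the titles. Per the submitters' processing notes, the builds were mm10 and GRCm38 and FastQC was used; the aligner and the methylation caller were not given in the sources used here. Per the file headers, the authors deposited for every window, island feature and gene feature the counts of covered positions, total calls and methylated calls, with a fraction for the level. That fraction matched methylated divided by total calls to within 5.55e-16, and percentages were recomputed from the counts. All 4 libraries' columns were assigned, and 0 sample columns were left unmapped. No libraries had identical calls.

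Mean levels weight features equally over those with a value in all 4 libraries. Windows were tested with at least 10 calls in every library and total calls × level × (1 − level) of at least 25 per library on average, by a quasi-binomial model with dispersions moderated by limma 3.58.1 in R 4.3.3 (trend on coverage, robust) and Benjamini-Hochberg adjustment over all tested windows. The model was run on simulated data in which few windows changed. In the real data 80.6% of windows had a lower mean, so the simulation cannot show how the model behaves under so wide a shift. Of the 941 windows of chromosome 16 with a level in all libraries, 878 were tested. Other values were computed in Python 3.11.15 with pandas 2.3.3 and scipy 1.17.1. Window positions were made 1-based. Windows named are the 10 largest falls and 5 largest rises among tested windows with groups that do not overlap, the 10 smallest adjusted p-values and the 3 longest runs on chromosome 16, and the 3 largest falls and 2 largest rises on chromosome 11. Other called windows, runs and genes of the lists were named after their values were seen. The chromosomes, gene lists and tests were chosen with earlier results of these data known. Calls come from amplified reads without molecular identifiers, so depth limits cover counting error only. Alternatives were weighting by calls, minimums of calls and positions, centring, other dispersion models, a replicate block and leaving out each library. Centring subtracted each library's mean window level for differences, and for called windows was an offset for its level over all pooled calls.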

Additional observations from a re-analysis of the deposited data

How the results depend on the processing

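Of 83 alternative values of differences, 82 kept their direction and 1 reversed. Centring each library on its own mean over all windows gave -0.843 points for chromosome 16 and turned chromosome 11 to 0.742, because centring removes the fall shared by all chromosomes. Weighting by calls gave -3.24 for chromosome 16, -0.758 for chromosome 16 minus chromosome 11 and -6.21 for its lowest bin. Standardising that gap gave -1.09 for covered positions and -1.01 for level and covered positions, both chosen after seeing the data. With at least 10 calls, islands had -0.415 and promoters -0.710 points.

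Of 51 alternative counts of called windows, 13 lay within 1.5 times the reported count, 26 lower and 12 higher. Without the information minimum 348 were called over all chromosomes. Without a trend on coverage 6 were called over all chromosomes, 0 on chromosome 16 and 0 on chromosome 11 (4890, 207 and 196 at an unadjusted p below 0.05). With unmoderated dispersions the counts were 0, 0 and 0 (1824, 74 and 64 unadjusted), and with limma on percentage points 0, 0 and 0 (4493, 207 and 134 unadjusted). With an offset for each library's level over all pooled calls they were 13, 0 and 2. Leaving out 1 library gave 0 to 1221 windows over all chromosomes, 0 to 67 on chromosome 16 and 0 to 64 on chromosome 11. With near-zero dispersions limited at 0.001 in place of 1e-08, chosen after seeing the data, the counts over all chromosomes, chromosome 16 and chromosome 11 were 1217, 67 and 63 when netrin-1 replicate 1 was left out and 243, 12 and 13 when replicate 2 of that group was. They were 1160, 73 and 31 when control replicate 1 was left out and 55, 0 and 7 when control replicate 2 was. Each such fit assumes that the lone library varies like the others. With the replicate number as a block the counts were 1306, 72 and 43. Whether the replicate numbers pair the samples is not known, since the labels name no shared batch. The deviations of same-numbered libraries had a correlation of 0.0241 over 25938 windows. Counting noise in single windows also lowers such a correlation, so it cannot decide the question. The cause of these changes was not tested. With 2 libraries a group, no exact test over libraries can fall below 0.333, and sparsely covered windows carry the largest differences.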
